A study of Mus musculus with 111 samples.

Results

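The genes described here encode the factors that start and extend protein synthesis on the ribosome: the initiation factors eIF1 to eIF6, the elongation factors eEF1 and eEF2, and the genes named after them, such as the kinases of eIF2 and the methyltransferases of eEF1A. They were chosen by gene symbol alone, as every symbol of Eif1 to Eif6, Eef1 or Eef2, alone or followed only by lower-case letters and digits. This gave 88 of the 36134 genes in the deposited transcript table. Expression was measured in single mouse embryos at the 2-cell stage. Germinal vesicle oocytes of the B6129F1 strain received 2 siRNAs by microinjection, each at 20 µM, and were held in meiotic arrest with dbcAMP for 5 hours, matured for 12 hours and fertilised in vitro. The Nr5a2 knockdown embryos received siRNAs against Nr5a2, which encodes an orphan nuclear receptor, together with 150 ng/µl of RNA for the marker H2B-rsEGFP. The control embryos received control siRNA with the same amount of RNA for H2B-EGFP, so the siRNA and the marker differed together and their effects cannot be told apart. All embryos were thus injected, matured and fertilised in vitro, and no untouched embryo was analysed here. The knockdown and control groups held 16 and 24 embryos in experiment 1, 16 and 7 in experiment 2, and 23 and 25 in experiment 3, or 55 and 56 in all. The labels do not say which females gave the oocytes, so p-values measure the spread between embryos within experiments.

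Translation starts when eIF4E binds the cap of an mRNA and, with the scaffold eIF4G and the helicase eIF4A, recruits the small ribosomal subunit carrying eIF1, eIF1A, eIF3, eIF5 and the complex of eIF2 with initiator tRNA. eEF1A then delivers each aminoacyl-tRNA and eEF2 moves the ribosome along the message. In the early mouse embryo these mRNAs are a mixture of copies stored in the egg and copies made after genome activation at the 2-cell stage, and the stored messages are controlled largely by when they are translated.

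Each library held between 1955964 and 21235978 estimated counts, with a median of 4512743 in knockdown embryos and 4948620 in control embryos. Nr5a2 itself averaged 48.6 ± 19.8 counts-per-million (CPM; SD, n = 55) in knockdown embryos and 109 ± 48.9 CPM (n = 56) in control embryos, and 52 of 55 knockdown embryos lay below the control median of their experiment. Markers of cumulus and granulosa cells summed to at most 56.8 CPM in a knockdown embryo and 79.1 CPM in a control embryo, and sperm markers to at most 7.30 and 5.21 CPM. Markers of the 2-cell stage summed to a median of 915 CPM (range 175 to 3337) in knockdown embryos and 1081 CPM (184 to 3827) in control embryos. Markers of the oocyte deposit summed to a median of 3494 CPM (1827 to 15751) in knockdown embryos and 3342 CPM (2219 to 6545) in control embryos. The 13 mRNAs of the mitochondrial genome were used as a sign of RNA quality. Their summed median was 76135 CPM in knockdown embryos and 68872 CPM in control embryos. All 13 had a knockdown fold change above 0, with a median of 0.31 on the log2 scale. Of the 13, 6 passed the test between the arms as higher, beside 0.632% of all genes. The part of these mRNAs in the results below was not tested.

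Levels of different genes were compared per transcript length, in transcripts-per-million (TPM) computed from the estimated counts. Eif4e, the cap-binding protein, and Eif5, which makes eIF2 hydrolyse its GTP at the start codon, stood highest over all embryos, with means of 1318 and 1303 TPM. By arm, Eif4e averaged 1210.0 ± 378 TPM in knockdown embryos and 1424 ± 428 TPM in control embryos (SD, n = 55 and 56, as in the next sentences). Eif5 averaged 1304 ± 399 TPM in knockdown embryos and 1301 ± 293 TPM in control embryos. Eif5a, the factor that eases elongation and termination, averaged 895 ± 173 TPM in knockdown embryos and 918 ± 200.004 TPM in control embryos. Eif1, which guards start codon choice, averaged 851 ± 187 TPM in knockdown embryos and 834 ± 236 TPM in control embryos. These 4 and Eef1a1, the main eEF1A gene, at 568 ± 145 TPM in knockdown embryos and 589 ± 140.0 TPM in control embryos, formed the top of the order, and the SD ranges of neighbours in it overlapped.

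Within the role classes the order was uneven. Among the eIF4E proteins, Eif4e was followed by its oocyte-type relative Eif4e1b, at 61.4 ± 41.0 TPM in knockdown embryos and 64.9 ± 41.7 TPM in control embryos. The helicase class was led by Eif4a3, the paralog best known from the exon junction complex, at 414 ± 156 TPM in knockdown embryos and 408 ± 134 TPM in control embryos, followed by Eif4a2 at 242 ± 81.2 TPM in knockdown embryos and 273 ± 70.1 TPM in control embryos. Of the scaffolds, Eif4g2, which lacks the eIF4E-binding site, averaged 219 ± 89.0 TPM in knockdown embryos and 252 ± 90.7 TPM in control embryos, and Eif4g1 averaged 144 ± 86.5 TPM in knockdown embryos and 123 ± 59.0 TPM in control embryos. Of the eIF3 subunits, Eif3h and Eif3i led with 261 ± 107 TPM in knockdown embryos and 263 ± 98.2 TPM in control embryos, and 194 ± 43.1 TPM in knockdown embryos and 194 ± 42.1 TPM in control embryos. Eif2s2, the beta subunit of eIF2, averaged 271 ± 87.7 TPM in knockdown embryos and 304 ± 82.7 TPM in control embryos, and Eif2s1, the alpha subunit that is phosphorylated under stress, 165 ± 75.6 TPM in knockdown embryos and 175 ± 74.6 TPM in control embryos. Its exchange factor eIF2B was led by Eif2b1 at 188 ± 50.7 TPM in knockdown embryos and 182 ± 48.0 TPM in control embryos, and Eif2b4 averaged 109 ± 56.4 TPM in knockdown embryos and 108 ± 45.0 TPM in control embryos. The kinases of eIF2 were low, the highest being Eif2ak1, the heme-regulated kinase, at 30.8 ± 9.46 TPM in knockdown embryos and 28.2 ± 9.74 TPM in control embryos, and Eif2ak3, the kinase of the endoplasmic reticulum, at 13.2 ± 5.12 TPM in knockdown embryos and 14.5 ± 5.76 TPM in control embryos.

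For elongation, Eef2 averaged 209 ± 103 TPM in knockdown embryos and 211 ± 89.7 TPM in control embryos. Eef1b2 and Eef1d, subunits of the complex that recharges eEF1A with GTP, averaged 118 ± 39.5 TPM in knockdown embryos and 118 ± 37.6 TPM in control embryos, and 85.7 ± 31.5 TPM in knockdown embryos and 90.0 ± 29.8 TPM in control embryos. Eef1a2, the eEF1A gene of muscle and neurons, was near the floor, with no count in 49 of 55 knockdown embryos and 50 of 56 control embryos. Of the modifying enzymes, Eef1akmt4 averaged 87.0 ± 54.4 TPM in knockdown embryos and 90.2 ± 51.0 TPM in control embryos, and Eef2k, the kinase that inhibits eEF2, averaged 77.0 ± 69.2 TPM in knockdown embryos and 81.7 ± 84.1 TPM in control embryos. Of the eIF4E-binding proteins, Eif4enif1, which carries eIF4E into the nucleus and into storage granules, averaged 174 ± 68.9 TPM in knockdown embryos and 183 ± 78.1 TPM in control embryos, and the repressor Eif4ebp1 49.1 ± 26.4 TPM in knockdown embryos and 56.2 ± 32.9 TPM in control embryos.

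**Figure D1:**
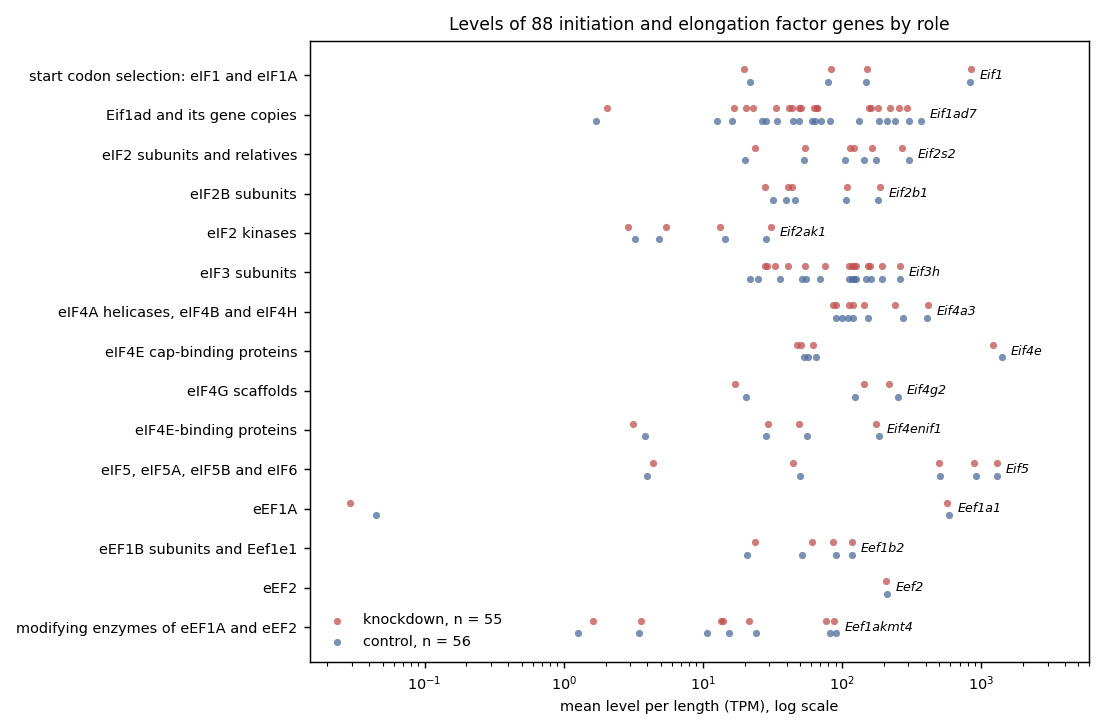
Mean level per length (TPM, log axis) of the 88 members by role, each point being 1 gene, with knockdown embryos (n = 55) above control embryos (n = 56) in each row and the highest gene of each role named. The points of both arms sit at nearly the same place in each row, from 0.0292 TPM for Eef1a2 to 1304 TPM for Eif5 in knockdown embryos.

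Whether lowering Nr5a2 RNA changes the supply of translation factors was asked by comparing knockdown with control embryos, with the experiment as a covariate. No member passed the test at the gene level. Of the 88 members, 84 passed the filter on low counts (all but Eef1a2, Eif1ad9, Eif1ad16 and Eif4ebp3) and none of them had an adjusted p below 0.05 in edgeR's quasi-likelihood test, against 148 of 13448 genes, or 1.1%. At an unadjusted p below 0.05 there were 7 of 84 members, against 9.5% of all genes. The fold change was above 0 for 37 members and below 0 for 47. All 3 eIF4G scaffolds stood below 0, and the 3 eEF1B subunits and Eef1e1 above it, and in the other role classes with more than 1 tested member both signs occurred. Over all members tested the median fold change was -0.020 on the log2 scale, beside 0.019 over all genes tested. Summed over the 88 genes, the factors took up 12475 ± 1676 CPM in knockdown embryos and 12779 ± 2058 CPM in control embryos. As each library holds the cells of 1 embryo together, less RNA in every cell and fewer cells with the RNA cannot be told apart. DESeq2, limma-voom and the fit without experiment 2 each called 1 member, Eef1akmt2.

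**Figure D2:**
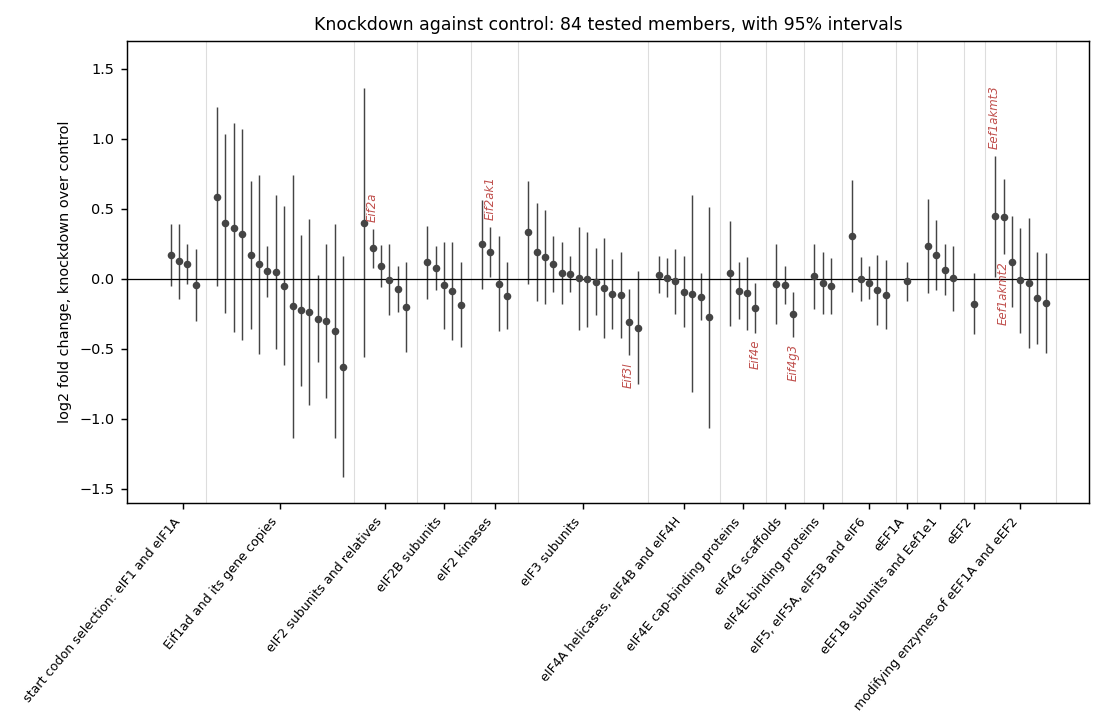
Log2 fold change of knockdown over control embryos (y axis) for the 84 tested members, grouped by role on the x axis, with 95% intervals from the fit. Members with an unadjusted p below 0.05 are named, and the interval of Eif2s3y, -0.56 to 1.36, is the widest.

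No gene of the cap-binding complex passed the test, Eif4g3 and Eif4e having its smallest p. Eif4e had lowest, median and highest values of 320.5, 861 and 1444 CPM in knockdown embryos of experiment 1, against 409, 1048 and 1737 CPM in control embryos. In experiment 2 Eif4e had 791, 1046 and 1697 CPM in knockdown embryos, against 773, 1272 and 1929.7 CPM in control embryos. In experiment 3 Eif4e had 791, 1208 and 1861 CPM in knockdown embryos, against 718, 1380.0 and 1895 CPM in control embryos. The knockdown median lay below the control median in each experiment, yet the groups overlapped throughout. Over all embryos Eif4e had log2 fold change -0.21 (SE 0.090, adjusted p = 0.37), and 40 of 55 knockdown embryos lay below the control median of their experiment. The authors' deposited table gave 2 protein-coding Eif4e transcripts, ENSMUST00000196990.4 and ENSMUST00000200100.1, log2 fold changes of -0.30 and -0.29 with adjusted p of 0.089 and 0.13 over all embryos. The direction of these fold changes is not labelled and was taken as knockdown over control from the Nr5a2 transcripts, of which those with an adjusted p below 0.05 were lower. Under its 10th percentile threshold the authors' deposited table gave them -0.36 and -0.35, with adjusted p of 0.020 and 0.031, and in all 4 of 307 member transcripts had an adjusted p below 0.05 there, beside 0.502% of all. The others were ENSMUST00000138827.7 of Eif2a, at 0.58, and ENSMUST00000123995.7 of Eif4a1, at 0.59, both annotated as retained introns.

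Eif4g3 is a scaffold close to Eif4g1. Eif4g3 had lowest, median and highest values of 10.5, 35.3 and 53.5 CPM in knockdown embryos of experiment 1, against 19.9, 40.5 and 62.4 CPM in control embryos. In experiment 2 Eif4g3 had 25.3, 36.3 and 57.2 CPM in knockdown embryos, against 30.0, 45.4 and 53.3 CPM in control embryos. In experiment 3 Eif4g3 had 17.2, 29.0 and 48.5 CPM in knockdown embryos, against 18.2, 35.8 and 51.8 CPM in control embryos. Here 45 of 55 knockdown embryos lay below the control median of their experiment, the groups overlapping in each. The gene had log2 fold change -0.26 (SE 0.081, adjusted p = 0.12), with -0.24, -0.21 and -0.29 in experiments 1, 2 and 3. The other scaffolds were closer to 0, with -0.037 for Eif4g1 (95% interval -0.32 to 0.25) and -0.047 for Eif4g2 (-0.18 to 0.087). Eif4e1b stood at 0.037 (-0.34 to 0.41), Eif4enif1 at -0.053 (-0.26 to 0.15) and Eif4ebp1 at 0.017 (-0.22 to 0.25). Of the helicases, Eif4a2 had -0.13 (-0.29 to 0.037) and Eif4a3 -0.019 (-0.25 to 0.21).

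The promoters of 57 members could be matched to RefSeq windows of 250 bases before to 50 after the gene start (GRCm38.p6). They were searched on both strands for TCAAGGNCA, the kind of extended half-site that NR5A receptors bind. It was present in 2 member windows, those of Eif4e and Eef2k, and in 1.62% of all 32851 windows. The shorter AAGGNCA, which the longer motif contains, was present in 12 member windows and in 20.3% of all. Both windows are shown because Eif4e is among the most abundant factors and Eef2k differed between experiments, with matches on either strand in capitals. The Eif4e window at chr3:138525941-138526240 on the + strand holds 2 matches and the Eef2k window at chr7:120842581-120842880 on the + strand holds 1. A match is a description of the letters only.
Eif4e: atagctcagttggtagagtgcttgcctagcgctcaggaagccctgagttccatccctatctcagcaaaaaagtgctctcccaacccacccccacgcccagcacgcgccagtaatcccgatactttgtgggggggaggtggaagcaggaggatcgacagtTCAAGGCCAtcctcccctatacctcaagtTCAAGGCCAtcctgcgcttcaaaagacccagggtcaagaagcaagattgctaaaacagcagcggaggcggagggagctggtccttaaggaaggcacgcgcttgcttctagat
Eef2k: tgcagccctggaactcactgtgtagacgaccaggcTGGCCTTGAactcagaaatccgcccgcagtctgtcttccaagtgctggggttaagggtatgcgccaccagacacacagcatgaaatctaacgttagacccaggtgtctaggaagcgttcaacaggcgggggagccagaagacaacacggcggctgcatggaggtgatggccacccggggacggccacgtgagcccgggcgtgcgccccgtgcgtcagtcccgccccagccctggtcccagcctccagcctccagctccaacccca

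The start codon factors and the eIF2 group held no called member at the gene level, and Eif2a had their smallest p. Eif2a, an alternative carrier of initiator tRNA that is distinct from the eIF2 alpha subunit, had log2 fold change 0.22 (SE 0.072, adjusted p = 0.14), with 38 of 55 knockdown embryos above the control median of their experiment. These gene counts include a retained-intron transcript, whose values are given further below beside those of the main protein-coding transcript. Eif2ak1 had 0.19 (SE 0.092, adjusted p = 0.50). Of the start codon factors, Eif1 had 0.10 (95% interval -0.041 to 0.25), Eif1b 0.12 (-0.15 to 0.39), Eif1a 0.17 (-0.053 to 0.39) and its X-linked paralog Eif1ax -0.046 (-0.30 to 0.21). The subunits Eif2s1 and Eif2s2 stood at -0.0093 (-0.26 to 0.24) and -0.075 (-0.24 to 0.092), and Eif2b1, Eif2b4 and Eif2b5 at 0.077, -0.046 and -0.19. Eif2ak3 had -0.12 (-0.36 to 0.12).

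The 14 eIF3 subunits divided evenly, 7 with a fold change above 0 and 7 below, with a median of -0.0020. Eif3l, a peripheral subunit, had the smallest p of them, with a median of 46.5 CPM (range 13.6 to 91.2) in knockdown embryos, against 53.1 CPM (18.7 to 105) in control embryos. Its log2 fold change -0.31 (SE 0.12, adjusted p = 0.28) did not pass, and Eif3h and Eif3i stood at -0.022 (-0.26 to 0.22) and 0.033 (-0.10 to 0.16). Among the late initiation factors, Eif5 was at -0.0021 (95% interval -0.16 to 0.15), Eif5a at -0.028 (-0.15 to 0.094) and the low Eif5a2 at 0.31 (-0.092 to 0.70).

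Of the elongation factors, Eef1a1 had -0.020 (95% interval -0.16 to 0.12), Eef2 -0.18 (-0.40 to 0.043), Eef1b2 0.063, Eef1d 0.0012 and Eef1e1, a scaffold of the aminoacyl-tRNA synthetase complex, 0.23. The member with the smallest p of all was Eef1akmt2, a lysine methyltransferase of eEF1A. Of its 6 transcripts only ENSMUST00000154914.1, annotated as a retained intron, passed the filter on low counts. The others were not tested on their own, so the gene values below do not separate coding from intron-holding RNA. Eef1akmt2 had lowest, median and highest values of 3.63, 8.04 and 12.5 CPM in knockdown embryos of experiment 1, against 1.06, 5.16 and 11.1 CPM in control embryos. In experiment 2 Eef1akmt2 had 1.55, 4.38 and 8.68 CPM in knockdown embryos, against 0.870, 4.76 and 10.8 CPM in control embryos. In experiment 3 Eef1akmt2 had 2.08, 5.84 and 16.2 CPM in knockdown embryos, against 2.22, 4.96 and 9.00 CPM in control embryos. The knockdown medians were above the control medians in experiments 1 and 3 and below in experiment 2, with overlapping groups. Its log2 fold change 0.44 (SE 0.14, adjusted p = 0.10) missed the threshold, while DESeq2 gave 0.47 (adjusted p = 0.038), limma-voom 0.53 (adjusted p = 0.019) and the fit without experiment 2 0.57 (adjusted p = 0.016). Over its alternatives the adjusted p ranged from 0.016 to 0.87. Eef1akmt4 and Eef2k stood at -0.18 (-0.53 to 0.18) and -0.012 (-0.39 to 0.36).

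The knockdown effect on no member passed the edgeR test for a difference between experiments, that of the 2 treatment-by-experiment terms, which called 2 of 13448 genes there, or 0.0149%. limma-voom called no member either. In the edgeR test 1 member, Eif1b, had an unadjusted p below 0.05, beside 5.65% of all genes, while 6 members had one with library totals alone and 4 with limma-voom. Eif1b had p = 0.019 (edgeR adjusted p = 0.81), with knockdown fold changes of 0.63, -0.13 and -0.18 in experiments 1, 2 and 3. Within experiments, 0 members were called in any of the 3, beside 0.922%, 0 and 0.149% of all genes in experiments 1, 2 and 3. The direction was the same in all 3 experiments for 23 of the 84 members, beside 25.8% of all genes.

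Between the arms, 1 of 199 member transcripts passed the test, beside 0.309% of all transcripts, and knockdown and control embryos overlapped in it. It was a transcript of Eif2a, ENSMUST00000138827.7, with a higher mean in knockdown embryos. The main protein-coding transcript, ENSMUST00000029387.14, had a fold change near 0. The higher one is annotated as a retained intron: it runs over chr3:58543280-58545823 on the + strand (GRCm38, GENCODE M21), and 1922 of its 2258 bases lie in introns of the protein-coding transcript, which has 14 exons. No other annotated gene overlaps it. Its border between intron and exon 7, at chr3:58544945-58545044, is shown because reads on the left of it set this transcript apart from spliced Eif2a RNA, with the exon in capitals.
Eif2a retained intron: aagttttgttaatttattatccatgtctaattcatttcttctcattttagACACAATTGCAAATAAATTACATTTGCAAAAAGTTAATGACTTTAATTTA

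The retained-intron transcript had lowest, median and highest values of 40.6, 74.2 and 147 CPM in knockdown embryos of experiment 1, against 21.8, 37.5 and 85.2 CPM in control embryos. In experiment 2 the retained-intron transcript had 12.1, 22.3 and 35.6 CPM in knockdown embryos, against 17.4, 21.0 and 28.3 CPM in control embryos. In experiment 3 the retained-intron transcript had 33.2, 54.4 and 93.3 CPM in knockdown embryos, against 27.2, 41.8 and 86.6 CPM in control embryos. In experiment 1 the median of the knockdown embryos was well above that of the control embryos, with overlap, in experiment 2 the groups lay on each other, and in experiment 3 they were shifted with much overlap. Over all embryos the transcript averaged 53.4 ± 29.1 CPM in knockdown embryos and 39.961 ± 14.7 CPM in control embryos, log2 fold change 0.52 (SE 0.092, edgeR adjusted p = 2.4e-04), and 44 of 55 knockdown embryos lay above the control median of their experiment. It was the 1 called transcript of 199 member transcripts tested, against 78 of 25255 transcripts, or 0.309%, and 10 member transcripts had an unadjusted p below 0.05, beside 6.29% of all. The protein-coding transcript averaged 86.9 ± 34.0 CPM in knockdown embryos and 87.6 ± 30.5 CPM in control embryos, log2 fold change 0.026 (SE 0.11, adjusted p = 1.000). The authors' deposited table gave the retained-intron transcript a log2 fold change of 0.55 with an adjusted p of 9.0e-06, the 1 member transcript below 0.05 of 256 with an adjusted p there, against 0.375% of all transcripts.

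By experiment, the fold change of the retained-intron transcript was 0.91 (SE 0.14, adjusted p = 1.9e-05) in experiment 1, 0.038 (SE 0.21, adjusted p = 1.000) in experiment 2 and 0.41 (SE 0.13, adjusted p = 0.78) in experiment 3. The difference between experiments had an unadjusted p of 0.0018 and did not pass (adjusted p = 0.64). In fits chosen after these values were seen, the call was lost without experiment 1 (0.30, adjusted p = 0.78) and without experiment 3 (0.62, adjusted p = 0.0504), and was kept without experiment 2 (0.64, adjusted p = 3.3e-05). As a share of all Eif2a counts of an embryo, a measure also chosen after the transcript fit, it took 34.3% ± 16.7 in knockdown embryos and 28.8% ± 10.4 in control embryos. The difference within experiments was 8.21 percentage points, with 16.4 points in experiment 1, -1.86 in experiment 2 and 5.75 in experiment 3. It restates the transcript values of the same embryos and is given as a description. Among the 25 retained-intron transcripts of members tested, 14 had a fold change above 0, with a median of 0.021, and among the 147 protein-coding ones 58, with a median of -0.033. An unadjusted p below 0.05 was found for 4 of the 25 and 5 of the 147.

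**Figure D3:**
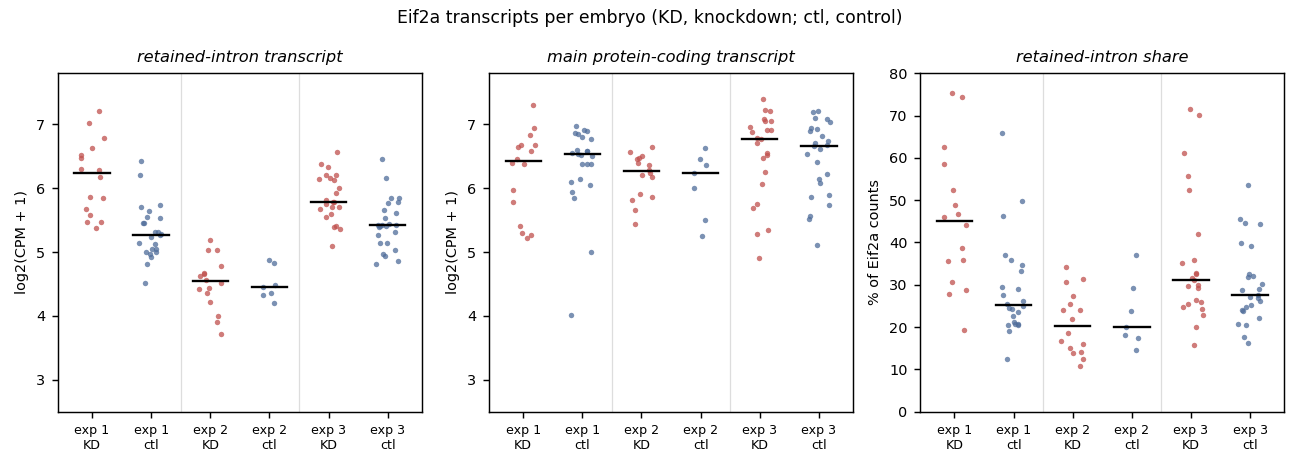
Eif2a transcripts in each embryo (points) by experiment and arm, with bars at the medians: the retained-intron and the main protein-coding transcript on a log2(CPM + 1) axis and the retained-intron share of Eif2a counts in percent. Knockdown embryos stand left of control embryos, and the retained-intron medians are 74.2 and 37.5 CPM in experiment 1.

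Apart from Eif2s3y, the members with the largest biological coefficient of variation (the embryo-to-embryo spread within groups that edgeR estimates) were gene copies. On chromosome 12, 17 members named Eif1ad2 to Eif1ad19 form a cluster of short genes close in sequence to the start codon factor eIF1A. All 16 that have a coding sequence in GENCODE M21 encode 435 coding bases, and their 120 pairs are at least 95.6% identical, with 1 pair the same throughout. Outside the cluster, the coding sequence of Eif1ad7 is 94.0% identical to Eif1a over the aligned bases, nearly as close as the copies are to each other. Against Eif1ax it is 84.8% identical, and against Eif1ad, the gene whose name they carry, 56.6%. The first 90 coding bases of 4 copies are shown, with bases that differ from Eif1ad7 in capitals, because over this stretch Eif1ad3 and Eif1ad6 are the same and the others differ from Eif1ad7 at 1 or 2 bases. Reads that cover no differing base cannot be assigned to 1 copy, so the split of counts between copies is uncertain. The genes, in the order of the lines, lie at chr12:88270640-88274500 (- strand), chr12:87874072-87877859 (+), chr12:87618869-87622955 (+) and chr12:88083697-88084131 (+) in GRCm38.
Eif1ad7: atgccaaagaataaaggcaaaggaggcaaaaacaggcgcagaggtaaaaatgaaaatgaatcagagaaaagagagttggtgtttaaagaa
Eif1ad3: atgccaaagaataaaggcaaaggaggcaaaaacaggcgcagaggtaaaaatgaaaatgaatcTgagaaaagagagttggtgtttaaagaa
Eif1ad6: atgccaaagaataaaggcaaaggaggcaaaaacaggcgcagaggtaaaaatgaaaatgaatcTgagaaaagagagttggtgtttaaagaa
Eif1ad18: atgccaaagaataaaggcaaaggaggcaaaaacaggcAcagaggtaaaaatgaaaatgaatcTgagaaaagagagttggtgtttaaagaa

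The promoter windows of copies can be as close. Those of Eif1ad6 (chr12:87618659-87618958, + strand) and Eif1ad2 (chr12:87816327-87816626, + strand) were identical at 99.6% of 259 aligned bases, with 1 difference, in capitals. They are shown as examples of the start regions of the copies (RefSeq, GRCm38.p6).
Eif1ad6: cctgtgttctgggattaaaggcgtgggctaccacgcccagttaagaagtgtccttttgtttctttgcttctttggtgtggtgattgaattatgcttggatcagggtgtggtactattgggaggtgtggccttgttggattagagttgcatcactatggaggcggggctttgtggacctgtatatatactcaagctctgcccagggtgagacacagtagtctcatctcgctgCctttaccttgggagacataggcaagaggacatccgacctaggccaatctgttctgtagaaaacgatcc
Eif1ad2: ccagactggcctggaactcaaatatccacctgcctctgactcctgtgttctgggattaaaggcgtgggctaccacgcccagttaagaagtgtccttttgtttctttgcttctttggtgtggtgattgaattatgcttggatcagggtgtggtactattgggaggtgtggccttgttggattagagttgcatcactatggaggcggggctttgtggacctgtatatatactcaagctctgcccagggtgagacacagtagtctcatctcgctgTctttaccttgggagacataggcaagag

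Among the copies, Eif1ad7 and Eif1ad3 had the highest levels per length, at 292 ± 275 TPM in knockdown embryos and 372 ± 362 TPM in control embryos, and 259 ± 241 TPM in knockdown embryos and 304 ± 274 TPM in control embryos. Eif1ad7 had lowest, median and highest values of 31.3, 225 and 773 CPM in knockdown embryos of experiment 1, against 20.0, 223 and 1832 CPM in control embryos. In experiment 2 Eif1ad7 had 43.9, 173 and 811 CPM in knockdown embryos, against 26.7, 197 and 792 CPM in control embryos. In experiment 3 Eif1ad7 had 18.0, 231 and 1331 CPM in knockdown embryos, against 50.4, 349 and 1409 CPM in control embryos. Within each group embryos thus differed many times over, and the arms covered each other. Summed over the 17 copies, which leaves out the split among them but not any split with Eif1a, the level ran from 121 to 5331 CPM with a median of 798 CPM in knockdown embryos, against 141 to 6651 CPM with a median of 1051 CPM in control embryos. No copy passed the test between arms. The smallest p was that of Eif1ad18, with log2 fold change 0.58 (SE 0.33, adjusted p = 0.62), and Eif1ad7 and Eif1ad3 had -0.30 (95% interval -0.85 to 0.25) and -0.23 (-0.77 to 0.31). The biological coefficient of variation, which was 1.83 for Eif2s3y, had a median of 1.11 over the 15 tested copies, beside 0.448 over the other 69 members and 0.537 over all genes.

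Eif4a3l1 and Eif4a3l2, on chromosome 6, are copies of the helicase gene Eif4a3 and showed a like spread. Their coding sequences are 98.5% identical to each other, and that of Eif4a3l1 is 96.2% identical to Eif4a3. Eif4a3l1 had lowest, median and highest values of 10.3, 40.041 and 547 CPM in knockdown embryos of experiment 1, against 0.657, 53.9 and 628 CPM in control embryos. In experiment 2 Eif4a3l1 had 7.44, 44.6 and 902 CPM in knockdown embryos, against 13.1, 166 and 704 CPM in control embryos. In experiment 3 Eif4a3l1 had 5.43, 33.3 and 952 CPM in knockdown embryos, against 5.39, 113 and 565 CPM in control embryos. Embryos high and low in Eif4a3l1 were present in every group. Within each of the 6 groups, embryos with more Eif1ad7 also had more Eif4a3l1, with Pearson's r from 0.639 to 0.881 and Spearman's rho from 0.622 to 0.874 on log2(CPM + 1). All 6 passed a two-sided permutation test adjusted over the 12 relations computed, exact for the 7 control embryos of experiment 2, with adjusted p of at most 0.0119 for r and 0.0317 for rho. Without the 2 embryos farthest from the median of Eif1ad7, r ran from 0.532 to 0.818. Both genes were read from the same libraries, whose depth and mix of RNA they share. Eif4a3l1 was chosen after its values were seen, which the adjustment over the 12 relations does not cover, so these p-values are given as a description. Eif4e1b was the only other gene set against Eif1ad7. Whether the relation is particular to this pair was not tested.

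With Eif4e1b, whose RNA is known from oocytes, the relation to Eif1ad7 was less even. Pearson's r ran from 0.351 to 0.761 and rho from 0.286 to 0.759 over the 6 groups, and the permutation test passed in 3 groups for r and 4 for rho, with adjusted p from 0.00146 to 0.341 for r and 0.00264 to 0.556 for rho. Without the 2 embryos farthest from the median of Eif1ad7, r was 0.686, 0.679 and 0.557 in the 3 groups that had passed, which were the knockdown embryos of experiments 1 and 2 and the control embryos of experiment 3. It was 0.620 in knockdown embryos of experiment 3, 0.263 in control embryos of experiment 1 and -0.487 in control embryos of experiment 2, where 5 embryos were left.

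The gamma subunit of eIF2 has an X-linked gene, Eif2s3x, and a Y-linked gene, Eif2s3y, and embryos fell into a low and a high set for Eif2s3y. It was below 1 CPM in 17 of 55 knockdown embryos and 27 of 56 control embryos, and at 10 CPM or more in 30 and 25, so that 8 and 4 lay between. In experiment 2, 4 of 16 knockdown embryos and 3 of 7 control embryos lay between, so the split was less clear there. The highest values were 73.4 CPM in a knockdown embryo and 72.4 CPM in a control embryo. Its log2 fold change 0.40 (SE 0.49, adjusted p = 0.91) had the widest 95% interval of all tested members, -0.56 to 1.36. Eif2s3x was detected in every group with a wide range. Eif2s3x had lowest, median and highest values of 34.3, 196 and 421 CPM in knockdown embryos of experiment 1, against 51.8, 166 and 488 CPM in control embryos. In experiment 2 Eif2s3x had 121, 214 and 488 CPM in knockdown embryos, against 68.1, 265 and 314 CPM in control embryos. In experiment 3 Eif2s3x had 53.4, 188 and 477 CPM in knockdown embryos, against 51.6, 292 and 673 CPM in control embryos. The groups overlapped, and Eif2s3x had log2 fold change -0.20 (SE 0.17, adjusted p = 0.82).

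**Figure D4:**
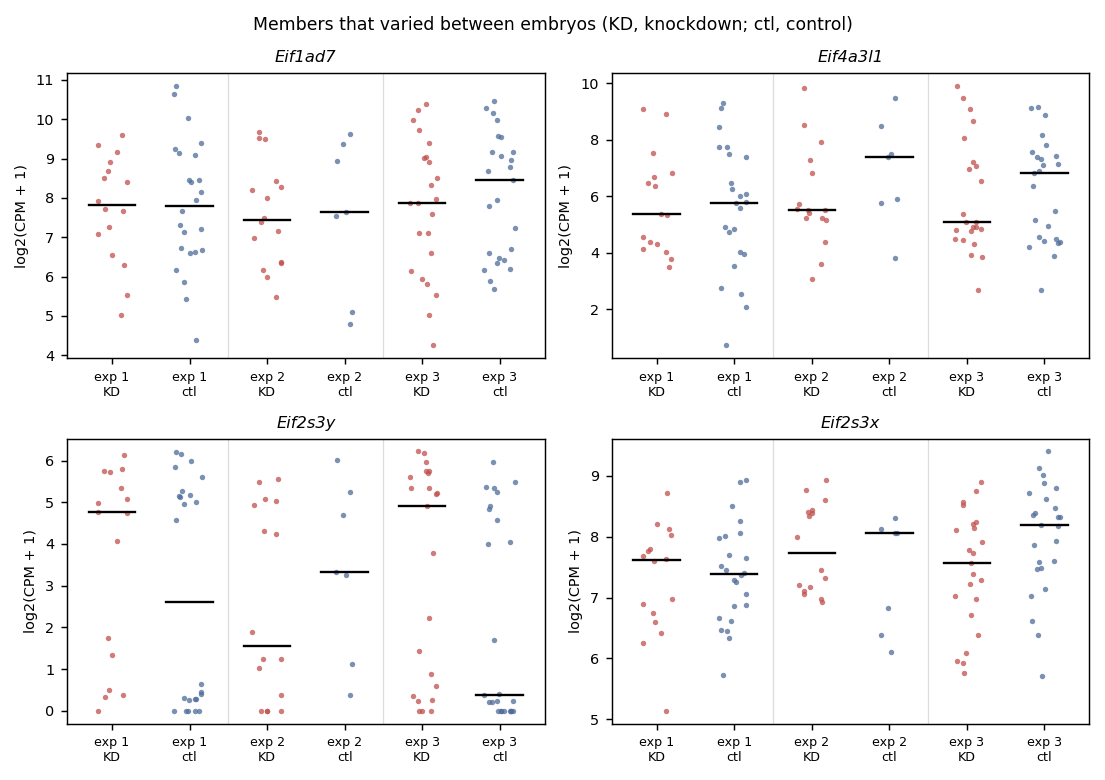
Log2(CPM + 1) of Eif1ad7, Eif4a3l1, Eif2s3y and Eif2s3x in each embryo (points) by experiment and arm, knockdown left of control, with bars at the medians. Eif1ad7 spans 18.0 to 1331 CPM in knockdown embryos and 20.0 to 1832 CPM in control embryos. Eif2s3y falls into a low and a high set, less clearly in experiment 2.

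The control embryos allow the experiments themselves to be compared without the siRNA against Nr5a2. Between the control embryos of experiment 1 and experiment 3, 2 members were higher and 8 lower in experiment 1, or 10 of 84, against 1229 of 13448 genes (9.14%; 5.89% higher and 3.25% lower). The fold change was below 0 for 60 of the 84 members, with a median log2 fold change of -0.20 beside 0.0090 over all genes. The repressor Eif4ebp1 was higher: in control embryos its lowest, median and highest values were 22.4, 46.8 and 103 CPM in experiment 1, against 12.3, 24.3 and 37.4 CPM in experiment 3, log2 fold change 0.93 (SE 0.17, adjusted p = 6.4e-05). Eif4g2 was higher as well, at 377, 566 and 860.0 CPM in experiment 1, against 187, 406 and 601 CPM in experiment 3, log2 fold change 0.43 (SE 0.10, adjusted p = 0.0019). The ranges overlapped for both genes.

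Of the lower ones, Eef2k had 24.6, 64.5 and 199 CPM as its lowest, median and highest values in control embryos of experiment 1, against 52.8, 116 and 671 CPM in experiment 3, log2 fold change -1.09 (SE 0.28, adjusted p = 0.0064). Eef1e1 had -0.80 (SE 0.26, adjusted p = 0.033) and Eif1b -0.58 (SE 0.20, adjusted p = 0.048). The other 5 were Eif5a2, which averaged under 20 CPM, at -1.28 (SE 0.30, adjusted p = 0.0023), and, with smaller fold changes, Eif1 at -0.56 (SE 0.11, adjusted p = 1.3e-04), the helicase gene Eif4a1 at -0.52 (SE 0.10, adjusted p = 1.3e-04), the eIF3 subunit gene Eif3i at -0.36 (SE 0.10, adjusted p = 0.0090) and Eif5a at -0.27 (SE 0.092, adjusted p = 0.046). Of these, Eif4a1 was named after its value was seen. Among knockdown embryos the same comparison called 1 member, Eif4a2, as lower, at -0.47 (SE 0.14, adjusted p = 0.047), against 2.24% of all genes (1.93% higher and 0.312% lower). There Eif4ebp1 had 0.37 (SE 0.19, adjusted p = 0.41), Eif4g2 0.28 (SE 0.11, adjusted p = 0.23), Eef2k -0.13 (SE 0.32, adjusted p = 0.91), Eef1e1 -0.37 (SE 0.29, adjusted p = 0.64) and Eif1b 0.23 (SE 0.22, adjusted p = 0.73), with the sign turned.

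Between the control embryos of experiment 2 and experiment 3, Eif2a alone passed among the 84 members, against 1.61% of all genes (0.342% higher and 1.27% lower in experiment 2). Its lowest, median and highest values were 57.5, 113 and 122 CPM in experiment 2, against 67.1, 144 and 225 CPM in experiment 3, with overlap, log2 fold change -0.59 (SE 0.17, adjusted p = 0.037). The call rested on small margins: it was lost with library totals alone, in control embryos alone, in embryos with at least 3000000 counts, and without control embryo 2 of experiment 2, where Eif2a had -0.50 (adjusted p = 0.17) and Eef2 passed in its place. Among knockdown embryos of experiments 2 and 3, 4 members were higher (Eef2, Eif3b, Eif4g1 and Eif2ak3) and 6 lower (Eef1akmt2, Eif2a, Eif3j2, Eif4a2, Eif4g2 and Eif1) in experiment 2, against 14.6% of all genes (5.44% higher and 9.21% lower), and Eif2a was again among the lower ones at -0.65 (SE 0.12, adjusted p = 4.1e-05). The Eif2a gene counts include its retained-intron transcript. That transcript took a median of 20.1% of them in control embryos of experiment 2, against 27.5% in experiment 3. In knockdown embryos it took 20.3% and 31.2%. How much of the Eif2a difference lay on each transcript was not tested. The labels give the experiments as numbers only, and what differed between them was not tested.

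**Figure D5:**
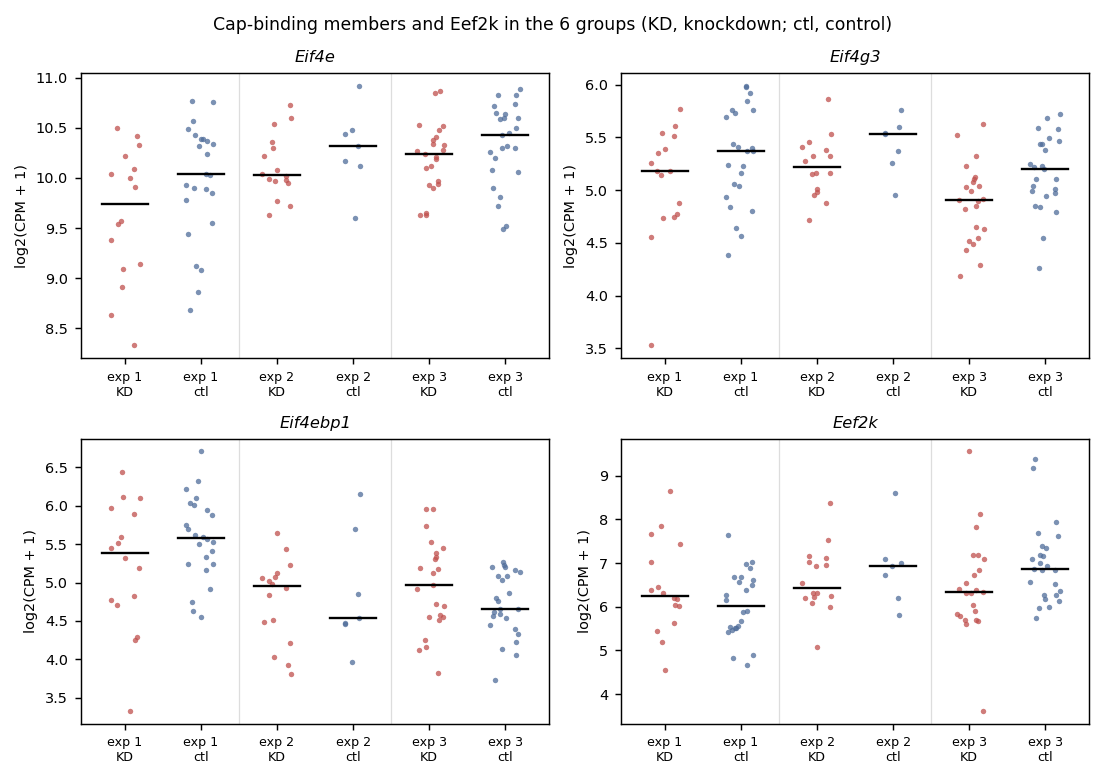
Log2(CPM + 1) of Eif4e, Eif4g3, Eif4ebp1 and Eef2k in each embryo (points) by experiment and arm, knockdown left of control, with bars at the medians. The Eif4e and Eif4g3 medians lie lower in knockdown than in control embryos within each experiment, and Eif4ebp1 is higher in experiment 1 (control median 46.8 CPM) than in experiment 3 (24.3 CPM).

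Other genes of the translation machinery, from a list of termination and recycling factors, poly(A)-binding proteins, initiation helpers, hypusine and diphthamide enzymes, ribosome quality control and mitochondrial factors, were set beside them. Of 63 found, 62 were tested between knockdown and control embryos, 29 with a fold change above 0 and 33 below, with a median of -0.018. None passed as higher and 1 as lower, beside 0.632% of all genes higher and 0.468% lower. It was Abcf3, an ABC protein that in yeast works with the eIF2 kinase Gcn2, which averaged 63.2 ± 25.1 CPM in knockdown embryos and 78.4 ± 27.9 CPM in control embryos (log2 fold change -0.38, SE 0.10, adjusted p = 0.029).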

How the data were processed

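Full-length cDNA of single 2-cell embryos was made by oligo-dT priming (SMART-seq2) and sequenced, 1 library an embryo, 55 knockdown and 56 control (the design text speaks of 57 control embryos). Per the submitters' processing notes, reads went through bcl2fastq and Trim Galore (0.6.2), estimated counts came from kallisto (0.46.1), and DESeq2 (1.32.0) ran in R (3.5.1). The notes name the builds mm10 and hg19. The main deposited table holds estimated counts per transcript, made by the authors with kallisto per the submitters' processing notes, and these need not be whole. The authors also deposited a batch-adjusted table, whose values are treated as a score since no source used here gives its scale, and a normalized table not used here. Their 2 comparison tables hold a log2 fold change, an adjusted p-value and a mean normalized count (a signal) per transcript, per the file headers. No source used here says what the 10th percentile threshold of the second means.

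Estimated counts were summed over the transcripts of a gene (119353 transcripts, 36134 genes) and rounded. Transcripts with no gene name (1726, 0.459 to 0.711% of an embryo's counts) were kept out of tests. Tests used edgeR 4.0.16 in R 4.3.3. Low counts were filtered with filterByExpr on the arms, libraries scaled by TMM, and the quasi-likelihood test had experiment and arm as terms, with p-values Benjamini-Hochberg adjusted over all genes or transcripts, threshold 0.05. A model of the 6 groups gave effects by experiment, differences between experiments within an arm and the treatment-by-experiment terms. SE is the fold change divided by the root of F. TPM used GENCODE M21 transcript lengths. For Eef1akmt1, transcripts with 52.7% of its counts had a length, and its TPM covers only those. The 2 tested member transcripts whose ID with version was not matched to M21 got no annotation. Alternatives used DESeq2 1.42.0 and limma-voom 3.58.1. Only the gene-level fit of knockdown against control was also run on simulated data. Precision is limited by 1955964 counts in the shallowest embryo and by the spread between embryos. All columns of embryo values were matched to their labels.

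The members and the lists of other genes were chosen with earlier results of these data known. Named with values were members called in any of these tests, the 2 highest per length and the 1 with the smallest p in each role class, Eif2s3x, Eif2s3y, Eif4e1b, Eif1a, Eif1ax and Eif4e, and up to 3 members a direction, averaging at least 20 CPM, in each comparison of control embryos. Eif4a3l1, and members named as called in other comparisons, were chosen after their values were seen.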

Additional observations from a re-analysis of the deposited data

Results flagged for a closer look

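In the 7 control embryos of experiment 2, the one group of 4 to 10 embryos, 6 of the 41 named members had an extreme embryo that stood apart from the others by Dixon's criterion, which chance meets in about 1 group in 20. Control embryo 2, the shallowest of that group, held 5 of them. Its Eef2k level was 389 CPM, with the next highest at 135 CPM. It was the lowest for Eif1 at 235 CPM (next 349.8 CPM), Eif2b4 at 23.0 CPM (next 109 CPM), Eif3h at 77.1 CPM (next 189 CPM) and Eif4a3 at 119 CPM (next 387 CPM). Eef1a2 was highest in control embryo 3, at 0.772 CPM (next 0.288 CPM), a level near the floor. The values without control embryo 2 are given with the processing alternatives.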

How the results depend on the processing

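Apart from the counts of calls, 47 fold changes of named members had 595 values under the alternatives; 576 kept direction and side of the threshold, 12 lost the call and 3 gained one, where a fold change that lies within 1 SE of 0 in the report was counted as having no direction to lose. Reversed were Eif1 (-0.036) and Eif5a2 (-0.0088) without experiment 1, Eif2s3x (0.066) without experiment 3, and Eif1b between experiments 1 and 3 in knockdown embryos (0.23), the first 3 to values within 1 SE of 0; the cause was not tested. Between knockdown and control embryos, 0 members and 148 genes became 1 and 227 with DESeq2. limma-voom and the fit without experiment 2 each called 1 member. The gene count was 965 with no low-count filter, 23 and 42 when experiments 1 and 3 were left out, and 3 with counts summed by experiment and arm, a design of 3 sums against 3, with 0 members in each. Same-numbered embryos shared only a number (46 pairs, median correlation 0.0523, -0.364 to 0.376, 5 embryos closest to their own number), and the fit with that number as a replicate block called 19 genes and 0 members. Between experiments 1 and 3, knockdown embryos gave 1 member and 301 genes in place of 10 and 1229 in control embryos. Between experiments 2 and 3, the 1 member of the control embryos became 0 with library totals alone, with control embryos alone and with at least 3000000 counts, and knockdown embryos gave 10 members and 1970 genes, against 217 genes in control embryos. The treatment-by-experiment test called 2 genes, 7 with library totals alone and 1 with limma-voom. Of transcripts, limma-voom called 3 of members and 177 in all, against 1 and 78. In fits added after seeing the data, leaving out experiment 1 gave 0 and 11, leaving out experiment 2 gave 2 and 170, and leaving out experiment 3 gave 0 and 8. Without control embryo 2 of experiment 2, also added, 0 members and 162 genes passed between arms, 1 member and 171 genes between experiments 2 and 3, and 1 member transcript and 91 transcripts. Depth limits the lowest members most, with 49 of 55 knockdown embryos and 50 of 56 control embryos at 0 counts of Eef1a2, and counts of near-identical copies cannot be split with certainty.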
